A study of Sus scrofa with 12 samples.

Results

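AMP-activated protein kinase (AMPK) was described in pig muscle through the 7 genes of its subunits, PRKAA1, PRKAA2, PRKAB1, PRKAB2, PRKAG1, PRKAG2 and PRKAG3, and STK11, the gene of its upstream kinase LKB1. The genes were the rows of the count table whose Ensembl identifier carries 1 of these symbols in the pig gene name table, and all 8 were found among the 25880 genes listed. All 8 passed the filter on low counts and were among the 14262 genes tested.

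AMPK is an energy sensor that works as a complex of a catalytic alpha, a scaffold beta and a nucleotide-binding gamma subunit. When AMP and ADP rise, they bind the gamma subunit, LKB1 phosphorylates the alpha subunit, and the active kinase switches on fuel uptake and oxidation while it holds back the synthesis of fat, protein and glycogen. The gamma subunit encoded by PRKAG3 is made mainly in skeletal muscle, and variants of this gene are known in pigs for their effect on muscle glycogen and on the quality of pork.

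RNA was sequenced from the Semimembranosus, a large muscle of the ham, of 12 Italian Large White pigs labelled by intramuscular fat (IMF), the fat held within the muscle. The 6 high IMF pigs, numbered 1 to 6, were aged 234 to 244 days, and the 6 low IMF pigs, numbered 7 to 12, were aged 229 to 249 days. Each group had 3 pigs labelled female and 3 labelled male, the latter castrated by the study's methods, and all were kept in 1 environment on 1 diet. Each library came from a separate animal and held between 131048805 and 178013997 counts, so each gene rested on 583 counts (PRKAB1) or more in every pig, and the groups' ranges of totals overlapped.

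The counts of EIF1AY and KDM5D, the 2 Y chromosome genes found of 8 sought, went against the labelled sex in 6 of the 12 pigs. They were pigs 3 and 5 of high IMF and pigs 7, 8, 9 and 10 of low IMF. Pigs with Y transcripts had 3734 to 5601 such counts and the others at most 6. Whether the sex labels or the libraries were exchanged was not tested, so the IMF group of these 6 libraries is also uncertain. Y counts cannot show an exchange between pigs of the same sex, so the IMF group of the other pigs was not tested either. Comparisons are also given without the 6 pigs with discordant Y counts, which leaves 4 high IMF against 2 low IMF pigs. The libraries held the transcripts of skeletal muscle: the 5 tested of 8 muscle markers summed to between 44897 and 71379 CPM, the count scaled to a common library size with TMM factors.

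The promoters of PRKAG1 and PRKAG2 are shown as those of gamma genes that compete for the same place in the complex. The pair was picked because their windows differ in base composition. PRKAG3 competes for the same place, and its window is not shown. Each sequence is the 250 bases before the RefSeq gene start on Sscrofa11.1, written 5′ to 3′ on the gene's strand, with E-boxes (CANNTG, the motif bound by MyoD and other basic helix-loop-helix factors) in capitals. They lie at chr5:15049677-15049926 (minus strand) and chr18:5474827-5475076 (plus strand) in this order.
PRKAG1: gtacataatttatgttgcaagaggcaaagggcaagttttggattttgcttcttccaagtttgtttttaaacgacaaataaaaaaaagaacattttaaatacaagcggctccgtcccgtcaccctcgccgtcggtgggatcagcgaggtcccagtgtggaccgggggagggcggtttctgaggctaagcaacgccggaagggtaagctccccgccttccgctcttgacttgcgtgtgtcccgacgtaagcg
PRKAG2: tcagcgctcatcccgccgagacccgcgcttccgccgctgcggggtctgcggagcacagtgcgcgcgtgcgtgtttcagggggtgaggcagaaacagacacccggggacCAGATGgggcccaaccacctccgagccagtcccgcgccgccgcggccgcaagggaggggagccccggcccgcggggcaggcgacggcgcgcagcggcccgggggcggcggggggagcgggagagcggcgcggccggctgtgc

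The PRKAG2 window held 1 E-box and the PRKAG1 window 0. E-boxes are common, and 61.9% of 19556 pig promoters of this length held at least 1. The M-CAT motif (CATTCC on either strand), held by 10.3% of all promoters, and the MEF2 motif, held by 1.53%, were not found in either window. The GC content was 51.2% for PRKAG1 and 78.4% for PRKAG2. The PRKAG2 window belongs to the most upstream of 12 RefSeq transcripts, and the transcript start used in this muscle was not measured.

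The subunit mix was dominated by 1 gene in each class. Levels were compared between genes as CPM per kilobase of merged RefSeq exons, as mean ± SD over the 12 pigs. PRKAA2, the catalytic subunit typical of striated muscle, had the highest level, 111 ± 12.6 CPM per kilobase, at percentile 97.9 of 11041 genes ranked. PRKAB2, the beta subunit abundant in skeletal muscle, followed at 49.8 ± 17.3 (percentile 95.6), and PRKAG3 at 38.4 ± 9.87 (percentile 94.3). These 3 genes make up a form of AMPK found in skeletal muscle in textbook accounts, though not the only one. The level of PRKAG1, the broadly expressed gamma subunit, was 7.16 ± 1.18 CPM per kilobase (percentile 76.9). STK11 stood at 5.33 ± 0.535 (percentile 71.5), and PRKAA1, the broadly expressed catalytic subunit, at 3.31 ± 0.273 (percentile 61.8). PRKAG2, a gamma subunit prominent in heart, had 2.39 ± 0.928 (percentile 54.7), and PRKAB1, the broadly expressed beta subunit, 1.63 ± 0.261 (percentile 46.7).

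**Figure D1:**
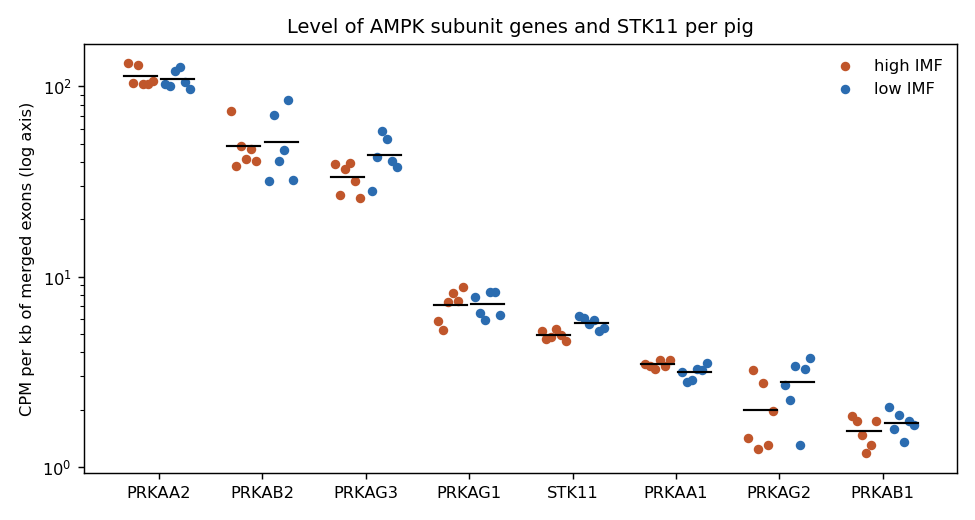
Level of each AMPK gene in CPM per kilobase of merged exons on a log axis, with 1 point per pig coloured by IMF group and a line at each group's mean. PRKAA2, PRKAB2 and PRKAG3 lie above the other 5 genes in every pig.

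Not all neighbours in this order were apart. PRKAA2 was 2.33 times as high as PRKAB2, PRKAG3 was 5.27 times as high as PRKAG1, and STK11 was 1.61 times as high as PRKAA1, each in 12 of 12 pigs and with ranges that did not overlap. PRKAB2 exceeded PRKAG3 in 9 of 12 pigs with overlapping ranges. It was 1.27 times as high on this length, from 0.689 to 2.09 times in single pigs, and the difference within pigs was not tested. That pair depended on the length: with coding length PRKAB2 was 6.57 times as high as PRKAG3 in 12 of 12 pigs without overlap, and with the median RefSeq transcript length 2.13 times in 12 of 12 pigs with overlap. PRKAA2 and PRKAB2 overlapped with coding length, PRKAA2 being 1.90 times as high and higher in 12 of 12 pigs. PRKAG1 exceeded STK11 in 12 of 12 pigs, with overlapping ranges. PRKAA1 over PRKAG2 and PRKAG2 over PRKAB1 each held in 9 of 12 pigs, again with overlap. The order of the first 3 means was the same with both other lengths. Lower down, those lengths placed STK11 above PRKAG1 and PRKAG2 above PRKAA1.

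Within the alpha class, PRKAA2 made up 97.1 ± 0.405% of the summed level of both genes (SD, n = 12). PRKAB2 made up 96.5 ± 1.26% of the beta class. The gamma class was the mixed one. PRKAG3 held 79.4 ± 4.82% of it, between 70.4% in pig 6 and 86.2% in pig 9. PRKAG1 held 15.5 ± 4.05%, from 8.73% to 24.2%, and PRKAG2 held 5.14 ± 2.18%, from 2.10% to 9.18%. Pigs 6 and 9 also bounded the PRKAG1 share, in the opposite order. The gamma mix depended on the length used: with coding length PRKAG3 held 64.4%, PRKAG1 20.4% and PRKAG2 15.2%, while PRKAA2 and PRKAB2 held 98.7% and 97.8%. The classes summed to 114 ± 12.5 CPM per kilobase for alpha, 51.4 ± 17.3 for beta and 47.9 ± 9.86 for gamma, which are levels of RNA and not of protein.

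**Figure D2:**
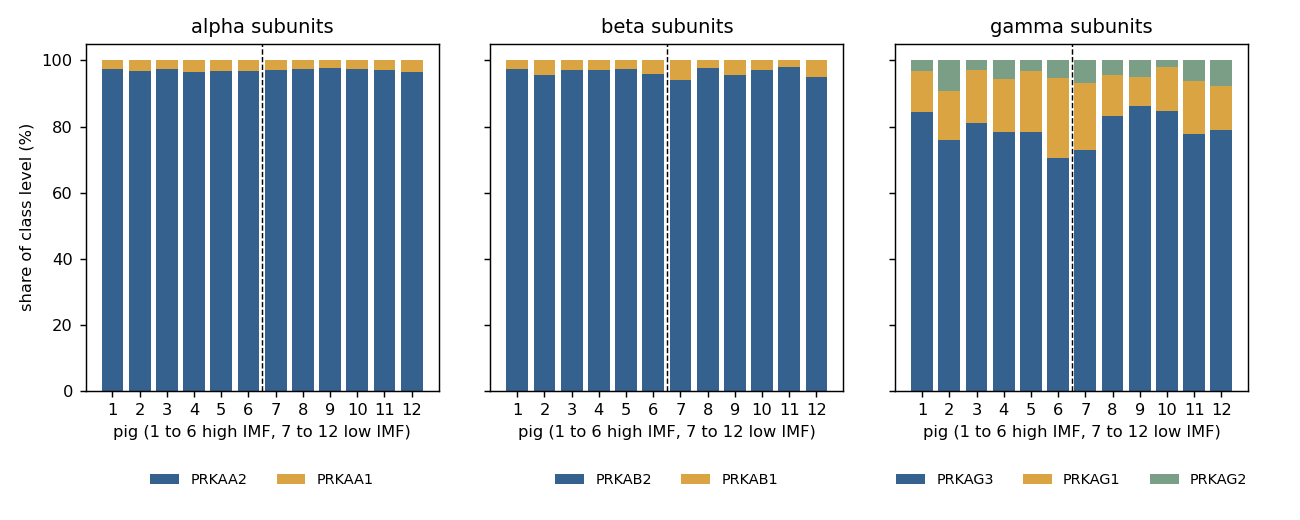
Share in percent of each subunit gene in the summed CPM per kilobase of its class, 1 bar per pig, with high IMF pigs 1 to 6 left of the dashed line and low IMF pigs 7 to 12 right of it. PRKAA2 and PRKAB2 fill nearly the whole bar in every pig, and the PRKAG3 share runs from 70.4% to 86.2%.

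The shares were compared between groups to ask whether the make-up of the complex went with IMF, and no difference in share passed an exact permutation test. PRKAG3 held 78.1 ± 4.74% of the gamma class in high IMF and 80.6 ± 4.99% in low IMF (n = 6 each), a difference of 2.46 percentage points (exact two-sided permutation p = 0.403, 0.522 after adjustment over 4 shares). The PRKAG1 share was 17.0 ± 4.00% in high IMF and 14.0 ± 3.81% in low IMF, with an exact permutation p of 0.212. PRKAA2 held 97.0 ± 0.409% and 97.2 ± 0.415% of alpha (exact permutation p = 0.426). PRKAB2 held 96.8 ± 0.806% and 96.3 ± 1.63% of beta (exact permutation p = 0.522). The smallest p that this design allows is 0.00216. Without the 6 pigs named above, the PRKAG3 difference was 1.07 and the PRKAG1 difference -2.36 percentage points.

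Between low and high IMF, none of the 8 genes was called at an adjusted p of 0.05 and a log2FC of 0.58 in size by edgeR's quasi-likelihood test, and neither was any of the 14262 genes tested (0%). DESeq2's Wald test called 64 of 13967 genes (0.458%), none of them an AMPK gene, and limma-voom called 0. At an unadjusted p of 0.05, edgeR passed 2 of the 8, PRKAG3 and STK11, both higher in low IMF, where 10.4% of all genes passed, 5.38% in that direction and 5.04% in the other. DESeq2 passed 2 and limma-voom 1, and without the 6 pigs edgeR passed 0. The log2FC, low over high, was above 0 for 6 of the 8 genes beside 48.4% of all genes, with a median of 0.11 beside -0.01. In none of the 8 did the groups separate fully, which 0.659% of all genes did. Without the 6 pigs the log2FC was -0.06 for PRKAA1, -0.12 for PRKAA2, 0.08 for PRKAB1, 0.27 for PRKAB2, 0.07 for PRKAG1 and 0.59 for PRKAG2, each with an adjusted p of 0.998 by edgeR, and no sign changed. The values that follow are TMM-scaled CPM, and a bulk muscle sample does not tell fewer cells of a type apart from less RNA per cell.

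Among gamma subunits, PRKAG3 had a lowest, median and highest CPM of 52.2, 69.6 and 79.7 in high IMF and 57.1, 84.1 and 118 in low IMF. Pigs 8, 9, 10 and 11 of low IMF lay above every high IMF pig, while pig 7 lay among the lowest. The mean was 67.4 ± 12.3 in high and 87.7 ± 21.9 in low IMF, 1.30-fold, with a log2FC of 0.38 (SE 0.17, 95% interval 0.01 to 0.75) and an adjusted p of 0.470 by edgeR. Its unadjusted p of 0.0456 became 0.122 without pig 9, 0.0977 without pig 6 and 0.0562 by limma-voom, all from fits across all genes. Without the 6 pigs the log2FC was 0.26, and 3 of the 4 low IMF pigs above the high IMF range were among them.

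PRKAG2 spread the most of the 8 between pigs, 3.00-fold. Its CPM was 11.9, 16.2 and 31.1 in high IMF and 12.5, 28.8 and 35.8 in low IMF at the lowest, median and highest pig. Both groups had pigs near each end, pigs 2 and 4 being high in high IMF and pig 10 low in low IMF. The log2FC was 0.48 (SE 0.29, 95% interval -0.14 to 1.10), the largest estimate among the 8, with an adjusted p of 0.581 by edgeR. PRKAG1 showed no shift, with means of 15.2 ± 2.94 and 15.2 ± 2.28 CPM. Its log2FC was 0.01 (SE 0.14, 95% interval -0.30 to 0.31, adjusted p = 0.994 by edgeR).

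**Figure D3:**
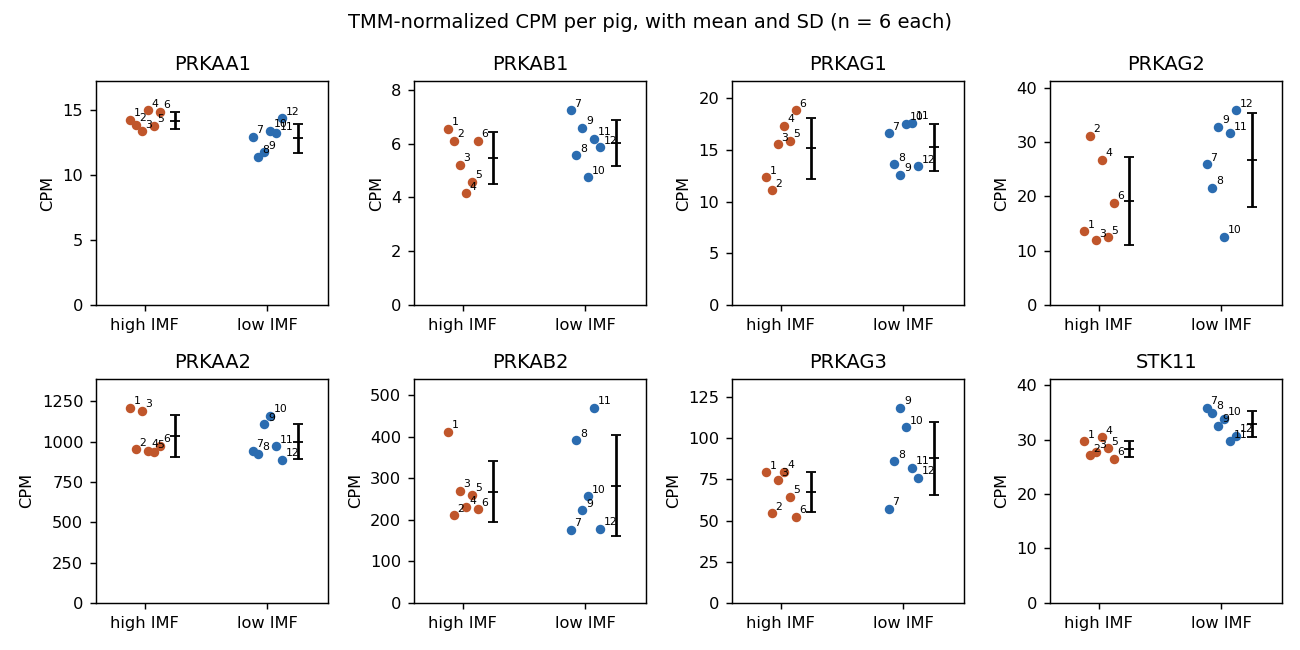
TMM-scaled CPM of each AMPK gene in every pig (points numbered by pig, high IMF and low IMF side by side) with the mean and SD of each group, on axes that start at 0. The groups overlap in all 8 genes, and 4 low IMF pigs lie above all high IMF pigs for PRKAG3.

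For the catalytic subunits, PRKAA2 lay between 939 and 1209 CPM in high IMF, median 963, and between 889 and 1159.7 in low IMF, median 957. The groups covered nearly the same range, with 4 pigs (1, 3, 9 and 10) above the rest. Its log2FC was -0.05 (SE 0.11, 95% interval -0.28 to 0.18, adjusted p = 0.903 by edgeR). PRKAA1 was 13.4 to 15.0 CPM in high IMF, median 14.1, and 11.4 to 14.4 in low IMF, median 13.1. Pigs 8 and 9 were the lowest, and 1 low IMF pig was above the high IMF median. The log2FC was -0.14 (SE 0.08, 95% interval -0.32 to 0.04, adjusted p = 0.569 by edgeR).

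For the beta subunits, PRKAB2 was 211 to 412 CPM in high IMF, median 245, and 177 to 469.8 in low IMF, median 240.1. Pigs 1, 8 and 11 stood above all others, so the high values fell in both groups. The log2FC of 0.08 (SE 0.25, 95% interval -0.47 to 0.62, adjusted p = 0.944 by edgeR) became -0.13 without pig 11 and 0.24 without pig 1. PRKAB1 was 4.15 to 6.56 CPM in high IMF, median 5.66, and 4.75 to 7.24 in low IMF, median 6.02. Its log2FC was 0.14 (SE 0.14, 95% interval -0.15 to 0.44, adjusted p = 0.746 by edgeR).

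STK11 had the smallest unadjusted p of the 8, 0.0143 in the edgeR fit across all genes. It was 26.5, 28.1 and 30.4 CPM at the lowest, median and highest high IMF pig, and 29.7, 33.2 and 35.8 in low IMF. All 6 low IMF pigs lay above the high IMF median and 5 lay above the highest high IMF pig, so the groups overlapped through pig 11 alone. The log2FC was 0.22 (SE 0.08, 95% interval 0.05 to 0.38), 1.16-fold, with an adjusted p of 0.427 by edgeR and 0.150 by DESeq2. Its spread around the group means was among the lowest of all genes, a biological coefficient of variation of 13.0% at percentile 0.379. Without the 6 pigs the log2FC was 0.09, and the 4 highest low IMF pigs were all among those left out. STK11 shares exon sequence with 2 genes on the opposite strand, CBARP, which had a mean of 9.17 CPM, and LOC110259376, which was not analysed here, and their part in the result was not tested.

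The genes lie at chr16:25745902-25783524 (PRKAA1), chr6:155683392-155754283 (PRKAA2), chr14:33201359-33217641 (PRKAB1), chr4:100378047-100394346 (PRKAB2), chr5:15033051-15049676 (PRKAG1), chr18:5475077-5744761 (PRKAG2), chr15:120859486-120866308 (PRKAG3) and chr2:77229888-77249322 (STK11) of Sscrofa11.1. The counts cover all exons of a gene, and isoforms were not separated. PRKAA2 also shares exon sequence with a gene on the opposite strand, FYB2 (C6H1orf168 in RefSeq), whose mean was 0.443 CPM.

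Across the 12 pigs, the members were not tied closely to each other. None of 28 pairs passed after adjustment, the smallest adjusted p being 0.684 by permutation. The strongest pair was PRKAA1 with STK11 (Pearson r = -0.63, permutation p = 0.0278; Spearman rho = -0.52, permutation p = 0.0891). Within groups that r was -0.28, and without pigs 8 and 9 it was -0.47. PRKAA2 and PRKAG2 had r = -0.59 (permutation p = 0.0489) and rho = -0.40 (permutation p = 0.201), and r = -0.32 without pigs 1 and 3.

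Fibre type was read from an index, the mean log2 CPM of 6 slow fibre markers minus that of 5 fast ones, because gamma subunits differ between fibre types in textbook accounts. The index was -3.03 ± 0.587 in high IMF and -3.47 ± 0.641 in low IMF, a difference that did not pass (exact permutation p = 0.227). None of the 8 genes passed against it after adjustment. PRKAG3 had r = -0.54 (permutation p = 0.0705, adjusted 0.282) and rho = -0.56 (permutation p = 0.0625), r = -0.44 within groups and -0.55 without pigs 6 and 12. PRKAG1 had the opposite sign, r = 0.60 (permutation p = 0.0398, adjusted 0.282) and rho = 0.55 (permutation p = 0.0667), 0.66 within groups and 0.51 without these pigs. Of the 5 fast markers, ATP2A1, the calcium pump of fast fibres, had the largest log2FC, 0.46 (SE 0.13, adjusted p = 0.367 by edgeR). The others were nearer to 0, with 0.16 for TNNT3, 0.06 for CASQ1, 0.05 for TNNC2 and 0.04 for TNNI2. The part of fibre mix in the values of PRKAG3 was not tested.

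**Figure D4:**
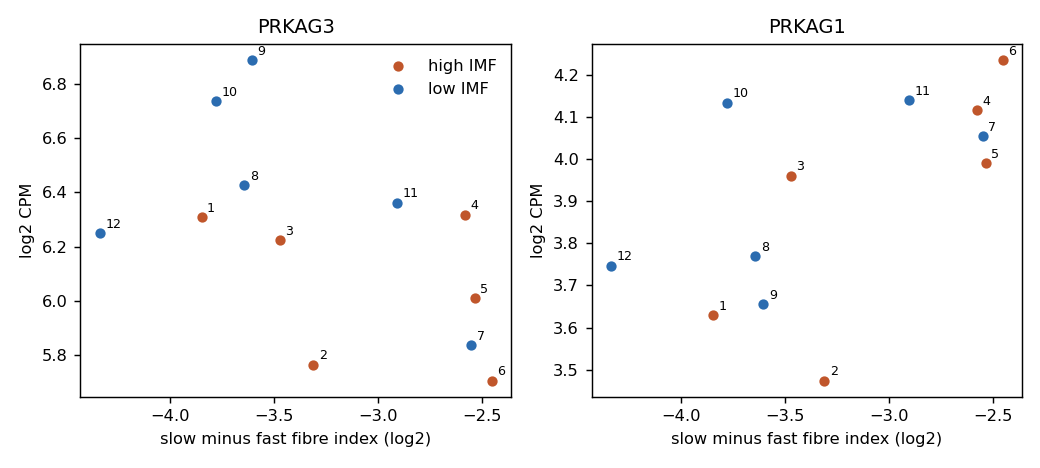
Log2 CPM of PRKAG3 and PRKAG1 against the slow minus fast fibre index (log2 units), 1 numbered point per pig coloured by IMF group. PRKAG3 tends down (r = -0.54) and PRKAG1 up (r = 0.60) with the index, and neither passed after adjustment.

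The genes whose log2 CPM followed PRKAG3 most closely, of 11836 with a symbol, were MAF (r = 0.90), TDRD6 (0.88), TTBK2 (0.87), FSTL4 (0.86) and TP63 (0.86). TDRD6 and FSTL4 were low, with means of 0.407 and 0.238 CPM. FSTL4 also had a log2FC of 3.80 between the groups (SE 1.16, adjusted p = 0.419 by edgeR). MAF, a basic leucine zipper transcription factor, had a rho of 0.73 and an r of 0.91 without pigs 6 and 9. Those nearest to PRKAA2 included HSBP1L1 (0.89), SLC35F5 (0.85), PHKB (0.85) and LMBRD2 (0.82). PHKB encodes the beta subunit of phosphorylase kinase, which activates glycogen breakdown. These are the highest of many correlations over the same 12 libraries and are given as a description.

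Around AMPK, 64 genes of 6 lists were found and 62 tested, of which edgeR called 0 and 11 had an unadjusted p of 0.05 or less, beside 10.4% of all genes. Without the 6 pigs with discordant Y counts that number was 4. DESeq2 and limma-voom called none of them either, with 12 and 11 at that unadjusted p. Of 7 upstream kinases and partners, 1 was higher in low IMF at an unadjusted p of 0.05: CAMKK2, the calcium-dependent kinase that phosphorylates AMPK, at 7.39 ± 1.08 CPM in high and 10.1 ± 1.47 in low IMF (log2FC 0.45, SE 0.13, adjusted p = 0.367 by edgeR). CAB39, the LKB1 partner also called MO25, was the most abundant at 283 CPM, log2FC 0.11. Of 6 binding regulators and phosphatases 1 passed, FLCN, the folliculin that binds AMPK through FNIP proteins, with log2FC 0.33 (SE 0.14, adjusted p = 0.441 by edgeR). The phosphatase PPM1A was the most abundant of them at 179 CPM, log2FC 0.07. Of 10 other LKB1-activated kinases tested, 8 had a log2FC above 0, beside 48.4% of all genes. Of these 10, 1 passed, MARK1 at 0.39 (SE 0.18, adjusted p = 0.477 by edgeR). SIK1, the most abundant, had 0.59 (SE 0.34, adjusted p = 0.570 by edgeR), and MARK3 was at 0 counts in every pig.

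The substrates of AMPK held 7 of these 11 genes. Of 20 tested, 6 were higher and 1 lower in low IMF at an unadjusted p of 0.05, beside 5.38% and 5.04% of all genes. A log2FC above 0 was found for 16 of the 20, beside 48.4% of all genes. Their median was 0.21 beside -0.01 for all genes. EEF2K, the kinase that slows protein elongation, had the smallest p, with 145 ± 14.9 CPM in high and 191 ± 27.2 in low IMF (log2FC 0.39, SE 0.11, adjusted p = 0.367 by edgeR). Its groups overlapped, the highest high IMF pig having 169 and the lowest low IMF pig 159 CPM. GYS1, muscle glycogen synthase, was the most abundant at 228 CPM and had a log2FC of 0.03. ACACB was not analysed here.

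Glycogen genes showed no common direction. Of 14 tested, 6 had a log2FC above 0 and 8 below, with a median of -0.03, and 1 passed at an unadjusted p of 0.05. That gene was PPP1R3B, which targets protein phosphatase to glycogen, at 75.4 ± 18.9 CPM in high and 49.8 ± 18.1 in low IMF (log2FC -0.60, SE 0.25, adjusted p = 0.441 by edgeR). PYGM, muscle glycogen phosphorylase, was the most abundant at 6787 CPM, log2FC 0.25 (adjusted p = 0.620 by edgeR). Of 6 enzymes that set AMP, ATP and phosphocreatine, none passed even unadjusted. NT5C1A, which dephosphorylates AMP, came nearest with 0.44 (SE 0.21, adjusted p = 0.494 by edgeR), and CKM, muscle creatine kinase, was the most abundant at 9244 CPM with 0.19.

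**Figure D5:**
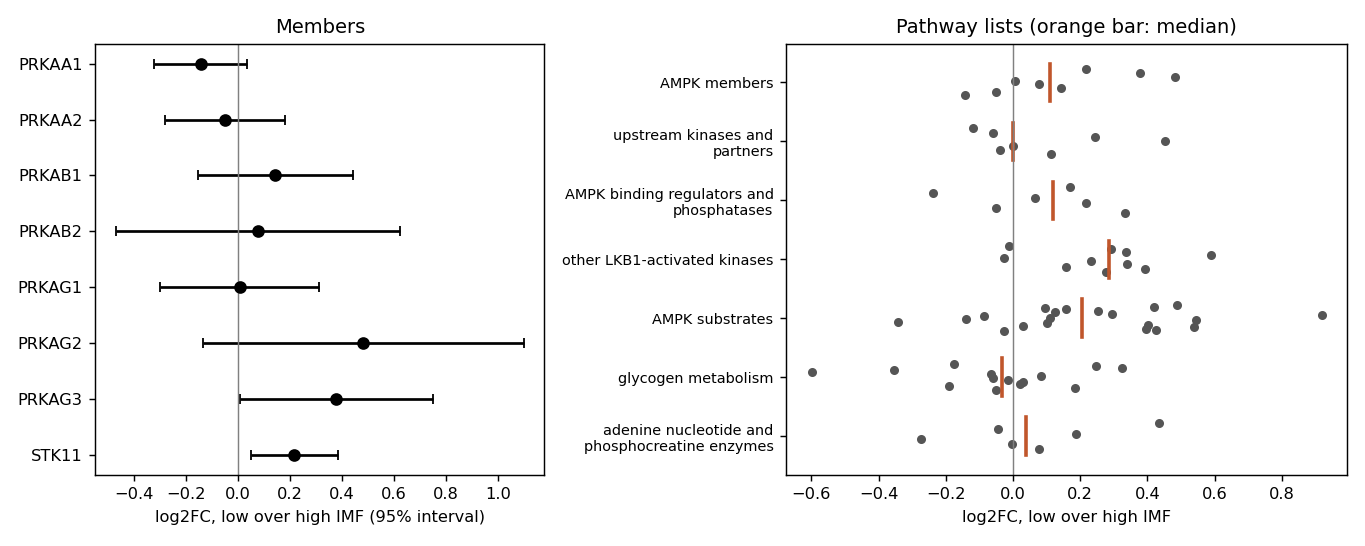
Log2 fold change, low over high IMF, from edgeR's quasi-likelihood fit over 12 pigs, with 95% intervals for the 8 AMPK genes (left) and 1 point per tested gene of each list with an orange bar at the list's median (right). The intervals of PRKAG3 and STK11 lie above 0 without either passing the adjusted threshold. The substrates have 16 of 20 points above 0, beside 48.4% of all genes tested.

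Markers of other cells were present in both groups. The 6 adipocyte markers tested of 7 summed to 42.0 to 118 CPM in high IMF and 19.7 to 127 in low IMF, and none of them passed at an unadjusted p of 0.05. Of these 6, 4 had a log2FC above 0 and 2 below, with a median of 0.16. ADIPOQ, the adiponectin gene of fat cells and the most abundant, was 45.3 ± 25.5 CPM in high and 40.8 ± 30.3 in low IMF, while PLIN1, a coat protein of lipid droplets, had a log2FC of 0.33. The 4 endothelial markers tested of 6 summed to 92.0 to 123 CPM in high and 95.3 to 159 in low IMF. Of these 4, 3 had a log2FC above 0 and 1 below, with a median of 0.13. Only CDH5 passed at an unadjusted p of 0.05, with log2FC 0.55 (adjusted p = 0.383 by edgeR). PECAM1, TEK and KDR had 0.16, 0.10 and -0.10. The 6 fibro-adipogenic markers summed to 1075 to 2183 and 1660 to 2634 CPM, and the 5 tested macrophage markers 47.3 to 104 and 56.9 to 96.5, in high and low IMF. Of the former 3 had a log2FC above 0 and 3 below, and of the latter 2 above and 3 below. PDGFRA of the former and AIF1 of the latter were the 2 that passed at an unadjusted p of 0.05, with log2FC of -0.42 and -0.46. No marker of these lists found in the count table, tested or not, was at 0 in every pig. LEP and ADIG, both under 1 CPM on average, were at 0 in some. Their part in the values of the AMPK genes was not tested.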

How the data were processed

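The deposited table held whole-number counts per Ensembl gene and pig, not normalized. From the study's methods and the labels, the authors prepared stranded mRNA libraries, trimmed paired reads with Trimmomatic, aligned them to Sscrofa11.1 with HISAT2, and used StringTie and HTSeq to obtain these counts. The strand option of counting is not given in the sources used here, so genes that overlap on opposite strands are uncertain.

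Counts were filtered with filterByExpr, scaled by TMM and compared in R 4.3.3 by the quasi-likelihood test of edgeR 4.0.16, in a model that held the group alone. Benjamini-Hochberg adjustment covered the 14262 genes tested. A call needed 0.05 or less for the adjusted p together with a log2FC, positive where low IMF is higher, of 0.58 or more in either direction. Log2 CPM used a prior count of 2. Levels were divided by the merged exon length of RefSeq gene models on Sscrofa11.1. Shares used exact permutation over all arrangements of the pigs and correlations 100000 permutations (Python 3.11.15, scipy 1.17.1). The scripts were tested on simulated data.

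Alternatives were DESeq2's size factors, DESeq2's Wald test (DESeq2 1.42.0), limma-voom (limma 3.58.1), other count filters, labelled sex as a term, other lengths, each pig left out, and the 6 pigs with discordant Y counts left out. A Y count term and the median transcript length were added after seeing the data. Named genes are the 8 members, in each list the gene with the smallest p and the one with the highest CPM, the 5 genes nearest to PRKAG3 and to PRKAA2, and markers. Members and lists were chosen with earlier results of these data known. Some results under this rule are not reported here.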

Additional observations from a re-analysis of the deposited data

Results flagged for a closer look

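PRKAB2 in pig 1, of high IMF, had 412 CPM, away from the other 5 pigs of its group by 0.705 of the group's range, which is above the critical value of 0.625. It was the only such value among 28 groups examined. Chance alone gives about 1 in every 20 groups, so 1 among 28 is no excess.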

How the results depend on the processing

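No paired analysis was possible because the groups share no replicate number. No AMPK gene was called under any alternative. DESeq2's Wald test called 64 genes in all, and leaving out each pig gave 0 to 1, the 1 without pig 5 or without pig 10. Genes at an unadjusted p of 0.05 numbered 607 without the 6 pigs with discordant Y counts and 1046 (without pig 6) to 2060 (without pig 2) with 1 pig left out. AMPK genes at that p numbered 1 with limma-voom, 0 without the 6 pigs and 1 to 2 with 1 pig left out. PRKAG3 lost its place without any 1 of pigs 2, 5, 6, 8, 9, 10 and 11. PRKAG2 passed instead without pig 2 (log2FC 0.68) or pig 10 (0.63), each with an unadjusted p of 0.0308 by edgeR. Pathway genes at that p numbered 4 without the 6 pigs and 5 (without pig 7) to 19 (without pig 2). Leaving out 1 pig moved the log2FC of PRKAB2 between -0.13 (without pig 11) and 0.24, turning it also without pig 8, and the log2FC of PRKAG1 between -0.0703 (without pig 2) and 0.0763 (without pig 6), turning it without pigs 1, 2, 7, 10 or 11. Over the same fits PRKAG3 ran from 0.27 to 0.48, PRKAG2 from 0.38 to 0.68, STK11 from 0.20 to 0.25, PRKAB1 from 0.07 to 0.20, PRKAA1 from -0.17 to -0.10 and PRKAA2 from -0.10 (without pig 10) to -0.01 (without pig 1). The PRKAG3 share difference ran from 0.923 (without pig 6) to 4.01 (without pig 7) percentage points, and the PRKAA2 share difference turned to -0.110 without the 6 pigs. The causes were not tested. Fewer pigs also enter each of these fits, and 6 pigs a group limit the precision.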

Other observations

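Some AMPK targets that act on transcription and on cell clearance had small unadjusted p-values, and they are named here after their values were seen. PPARGC1A, the coactivator of mitochondrial genes, was 55.8 to 144 CPM in high IMF and 70.8 to 392 in low IMF, with a log2FC of 0.92 (SE 0.35, adjusted p = 0.434 by edgeR). FOXO3, a transcription factor of atrophy and stress genes, had 0.54 (SE 0.21), and ULK1, which starts autophagy, had 0.49 (SE 0.19), with adjusted p of 0.435 for both by edgeR. TSC2, a brake on mTORC1, and CRTC2, a CREB coactivator, had 0.42 and 0.43.

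The genes nearest to the 2 most variable AMPK genes were also looked up after the values were seen. PRKAG2 was followed most closely by DGKQ, a diacylglycerol kinase, with r = 0.91 and rho = 0.93 over 12 pigs, and r = 0.87 without pigs 3 and 5. The mean of DGKQ was 1.04 CPM. The gene nearest to PRKAB2, DNER, with a mean of 0.475 CPM, fell from r = 0.82 to 0.57 without pigs 1 and 11. PRKACB, a catalytic subunit of protein kinase A, had 0.77 with these pigs and 0.90 without.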
